A study of Sus scrofa with 21 samples.

Results

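The 7 piglets whose distal small intestine gave the most smooth-muscle RNA were compared with the 7 that gave the least, out of 21 piglets in all. The order came from a muscle score, the mean of log2(CPM + 1) of the 3 smooth-muscle genes MYH11, ACTG2 and DES, where CPM is the expected count of a gene divided by the library total and multiplied by 1000000. The remaining 7 piglets formed a middle group, and diet played no part in the choice. All animals were Danish Landrace/Yorkshire, aged 24 to 25 days when the tissue was taken. Of the 21, 10 had been given the milk replacer alone (called control 1 to 10) and 11 the same replacer with added wheat, a starch source (called starch 1 to 11). The muscle-rich group held 2 control and 5 starch piglets, the middle group 4 and 3, and the muscle-poor group 4 and 3. The labels name no tissue layer, litter, sex or batch. Piglets of 1 diet are separate samples, and nothing in the labels says more of how they were kept.

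The wall of the small intestine carries an outer coat of circular and longitudinal smooth muscle and a thin muscle sheet under the mucosa. Its cells shorten when calcium, bound to calmodulin, switches on myosin light chain kinase, so that smooth-muscle myosin (MYH11) pulls on actin filaments (ACTG2, ACTA2) that are tied to intermediate filaments of desmin (DES). Enteric neurons, glia and interstitial cells of Cajal lie in and between the muscle layers, and the absorptive epithelium lines the lumen. A bulk library mixes all of these, and fewer cells of a type cannot be told apart from less RNA per cell.

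The total expected count lay between 7544633 and 8154681 in the muscle-rich libraries and between 6719264 and 8610458 in the muscle-poor ones, and mitochondrially encoded messages took 13.2 to 26.4% and 14.5 to 21.4% of it. Control 5, control 8 and starch 3 stood apart from the other 18 piglets and were also the 3 with the highest muscle score. The summed level of 15 absorptive enterocyte genes was 296 to 505 CPM in these 3, against 8916 to 32812 CPM in the other 4 muscle-rich piglets and 19067 to 43206 CPM in the muscle-poor ones. FABP6, the bile acid binding protein of the ileal enterocyte, was at 0.368 to 39.1 CPM in the 3 and at 336 CPM or more in every muscle-poor piglet. The labelled tissue was thus nearly without its absorptive-cell messages in these 3 libraries. Log2 differences and list medians below are also given without them. The muscle-rich group is then 4 starch piglets and no control piglet, while the muscle-poor group keeps 4 control and 3 starch piglets.

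The muscle score ran from 12.93 in control 8 to 10.57 in starch 10, a range of 2.36 on the log2 scale. It fell between the third and the fourth piglet by 0.44, from 12.44 in starch 3 to 11.998 in starch 4. At the borders of the groups it hardly changed. Starch 1, the last muscle-rich piglet, and starch 11, the first of the middle group, differed by 0.0054, and control 3 and control 6 at the lower border by 0.0318. The largest step between neighbours, 0.45, lay inside the middle group, between control 9 (11.55) and control 10 (11.10). The borders of the groups thus fell at no step of the score.

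**Figure D1:**
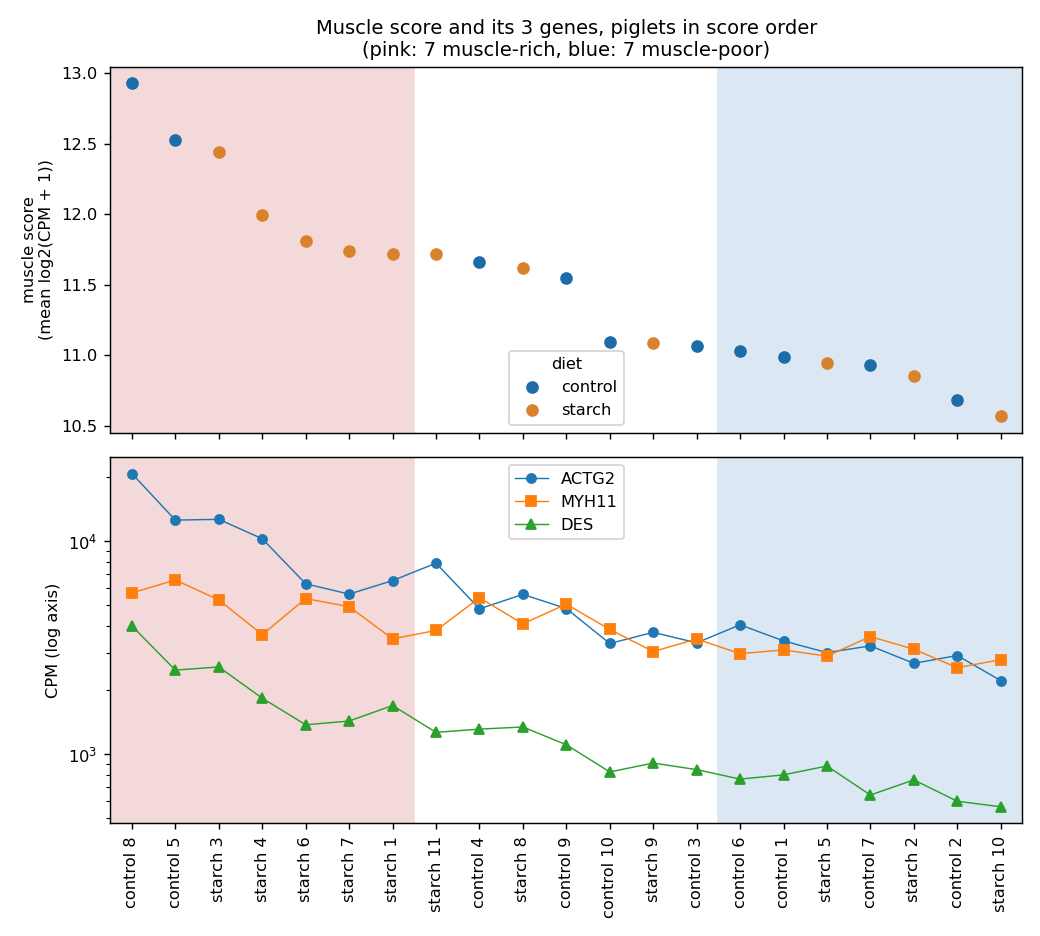
Upper panel, the muscle score (mean log2(CPM + 1) of MYH11, ACTG2 and DES) of the 21 piglets in score order, coloured by diet. Lower panel, the CPM of the 3 genes on a log axis. Control 8, control 5 and starch 3 stand above the rest, and ACTG2 falls more steeply along the order than MYH11.

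The 3 score genes chose the groups, so their values are a description without a test. ACTG2, the enteric form of smooth-muscle actin, was at 5641, 10263 and 20749 CPM (lowest, median and highest of the 7) in the muscle-rich piglets and at 2214, 2996 and 4047 CPM in the muscle-poor ones. DES, desmin, was at 1374, 1831 and 3996 CPM against 566, 757 and 880 CPM. MYH11, the smooth-muscle myosin heavy chain, was at 3479, 5297 and 6571 CPM against 2546, 2964 and 3564 CPM. Every muscle-rich piglet was above every muscle-poor piglet for ACTG2 and DES. For MYH11 the groups overlapped, since starch 1 (3479 CPM) was below control 7 (3564 CPM).

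The log2 difference, muscle-rich minus muscle-poor, was 1.71 for ACTG2, 1.54 for DES and 0.66 for MYH11, and 1.23, 1.15 and 0.55 when control 5, control 8 and starch 3 were left out. Per length, as FPKM, the median level was 9264 for ACTG2, 1344 for DES and 1011 for MYH11 in the muscle-rich group, against 2694 (ACTG2), 560 (DES) and 564 (MYH11) in the muscle-poor group. Together the 3 genes took 1.17 to 3.05% of the counts of a muscle-rich library and 0.556 to 0.778% of a muscle-poor one. The middle piglets lay at 0.765 to 1.30%.

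Ratios within each library need no scaling between libraries, and those among the score genes describe values that chose the groups. ACTG2 gave 1.15, 1.91 and 3.63 counts per MYH11 count in the muscle-rich piglets (lowest, median and highest) and 0.797, 1.04 and 1.37 in the muscle-poor ones, with a median of 0.959 in the middle group. The groups overlapped, because starch 6 (1.17) and starch 7 (1.15) had ratios like those of muscle-poor piglets. DES per MYH11 had a median of 0.484 against 0.244, and 0.244 in the middle group. Against the vascular and enteric actin ACTA2, ACTG2 had a median ratio of 10.6 in muscle-rich, 6.35 in middle and 5.72 in muscle-poor piglets. In the 4 muscle-rich piglets besides control 5, control 8 and starch 3 the medians were 1.52 (ACTG2 per MYH11), 0.388 (DES per MYH11) and 8.89 (ACTG2 per ACTA2).

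CNN1, calponin, an actin-binding protein that restrains myosin, had a median of 0.250 counts per MYH11 count in muscle-rich, 0.148 in middle and 0.146 in muscle-poor piglets (0.213 in the 4 muscle-rich piglets besides the 3). TAGLN, transgelin, an actin-binding protein of smooth muscle, had 0.268, 0.167 and 0.182 (0.252 in the 4). For ACTA2 the muscle-rich and muscle-poor medians were 0.162 and 0.164, for the light chain kinase MYLK 0.118 and 0.107, and for leiomodin LMOD1, which nucleates actin filaments, 0.0264 and 0.0265. The median proportions of ACTG2, DES, CNN1 and TAGLN to MYH11 were higher in the muscle-rich group alone, and the middle group was at or below the muscle-poor level or close to it. Those of ACTA2, MYLK and LMOD1 were close in the muscle-rich and muscle-poor groups. Medians per MYH11 were also higher in the muscle-rich group for MYL9 (0.0975 against 0.0764 in the muscle-poor group), TPM1, TPM2 and FLNA. Muscle-rich and muscle-poor piglets overlapped for all of these ratios. In the middle group, starch 11 had ratios of 2.07 (ACTG2) and 0.335 (TAGLN), above the muscle-rich medians. MYH11 and ACTG2 are themselves score genes, so these ratios carry no test.

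**Figure D2:**
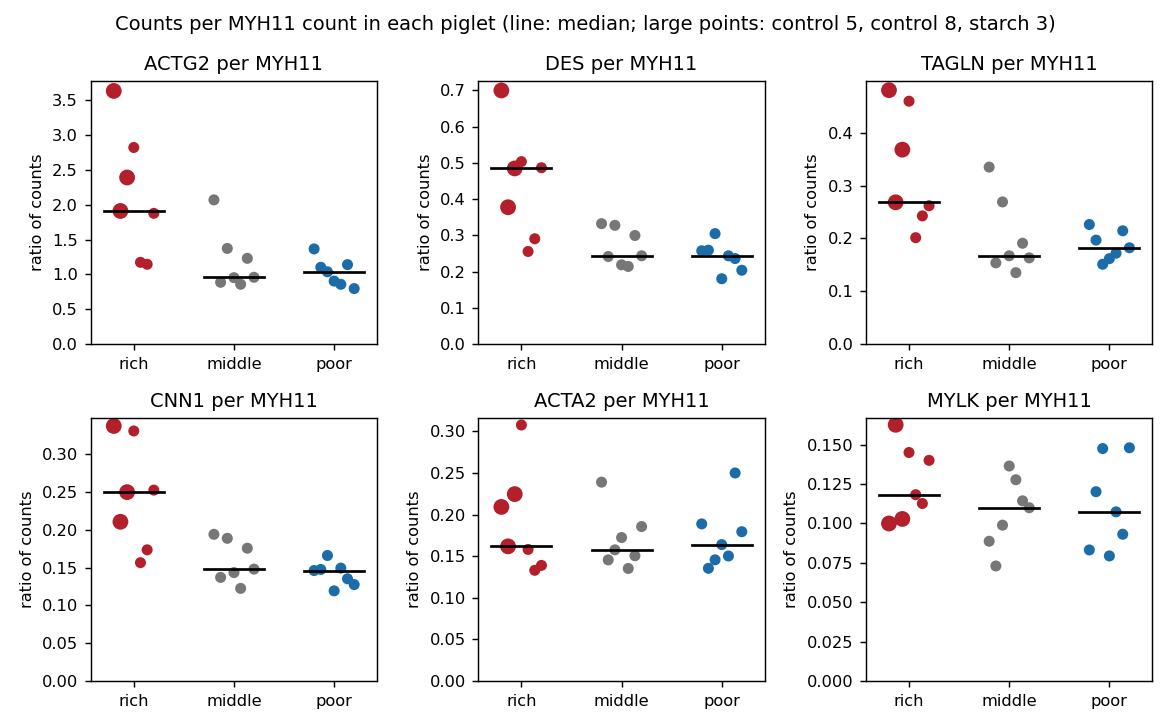
Counts of 6 contractile genes per MYH11 count in each piglet, by group, with the median as a line and control 5, control 8 and starch 3 as large points. ACTG2, DES, TAGLN and CNN1 have higher median ratios in the muscle-rich group, and the medians of ACTA2 and MYLK are close in all 3 groups.

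A list of 25 further contractile genes stands for the same cells as the score and is likewise described without a test. All 25 had a log2 difference above 0, with a median of 0.86. Over all 13075 genes other than the score genes 49.6% were above 0 and the median was 0.00. Without the 3 piglets that stood apart, 24 of 25 were above 0 and the median was 0.68, against -0.02 over all genes. The summed level of the list was 9420, 12946 and 20286 CPM in the muscle-rich piglets, 7503, 10683 and 11793 CPM in the middle group and 6617, 6947 and 7358 CPM in the muscle-poor ones. The muscle-poor piglets were close to each other, and the muscle-rich piglets were spread over a wide range.

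TAGLN was at 911, 1673 and 2746 CPM in the muscle-rich piglets against 436, 546 and 671 CPM, a log2 difference of 1.46 (1.13 without the 3). CNN1 was at 841, 1203 and 1927 CPM against 344, 433 and 479 CPM, a difference of 1.43 (1.17 without the 3). TPM1, a tropomyosin that covers the myosin sites of the actin filament, was at 554, 889 and 1310.3 CPM against 307, 380 and 437 CPM, a difference of 1.15 (1.02). For these 3 genes no muscle-rich piglet reached down to the muscle-poor range.

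ACTA2 was at 483, 1063 and 1195 CPM against 418, 498 and 636 CPM, with overlap and a log2 difference of 0.79 (0.61 without the 3). MYLK was at 487, 555 and 1069 CPM against 237, 334 and 426 CPM, a difference of 0.85 (0.77). At the low end stood the targeting subunits of myosin phosphatase, which ends contraction. PPP1R12A had a log2 difference of 0.09 and PPP1R12B of 0.10 (-0.20 and 0.32 without the 3). Counted over the list, 11 of 25 genes had no overlap between the groups, where 52 of 13075 genes (0.398%) were higher without overlap and 0.566% were so in either direction.

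Genes outside the score were then compared by edgeR's quasi-likelihood test. The groups had been picked by RNA levels of the same libraries, so a call says that a gene's level followed the muscle order in these piglets. At an adjusted p below 0.05, 266 genes (2.03% of 13075) were higher and 57 (0.436%) lower in the muscle-rich piglets, together 2.47% and contractile genes included. At an unadjusted p below 0.05 there were 3349 (25.6%). The 266 had a median log2 difference of 1.15 and the 57 a median of -0.98. The adjusted p of the edgeR quasi-likelihood test lay between 0.0058 and 0.0495 for the higher and between 0.0305 and 0.0499 for the lower genes. Without control 5, control 8 and starch 3 the same test called 0 of 13264 genes, with 986 (7.43%) at an unadjusted p below 0.05. No other tool was run on those 11 piglets. The median log2 difference of the 264 higher genes that could be fitted was then 0.77 and that of the 57 lower genes -0.80, all with the same sign. The muscle-poor group and 4 of the muscle-rich piglets are the same in both fits, so that shared sign is largely fixed by the choice of genes. Leaving out a single piglet gave between 5 (without starch 2) and 1059 (without starch 1) higher genes, so the count of calls depends on single animals.

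The median of the middle group, which was not in the fit, lay between those of the outer groups for 253 of the 266 higher genes (95.1%) and 54 of the 57 lower genes (94.7%). Over all tested genes it did so for 6522 of 13075 (49.9%). Genes were called for a gap between the outer groups, and the middle piglets were intermediate by the score. The higher share among called genes is thus largely fixed by these choices.

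Among the higher genes with no overlap between the groups, the largest log2 difference was that of CRYAB, a small heat shock protein that protects desmin filaments. It was at 26.01, 54.5 and 123 CPM against 12.96, 16.1 and 22.8 CPM, a log2 difference of 1.68 ± 0.32 (SE; adjusted p = 0.0311 by edgeR's quasi-likelihood test), and 1.09 without the 3.

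The others by the same rule, besides TAGLN, CNN1 and TPM1 above, were ITGA5, ITGA7, LGALS1, TUBB6, CNGA3, HACD1, SMARCD3 and POPDC2, with log2 differences of 1.15 to 1.44. LGALS1, a galactose-binding lectin of connective tissue and muscle, was at 161, 238 and 502 CPM against 65.5, 122 and 151 CPM (log2 difference 1.29, 0.84 without the 3). TUBB6, a beta-tubulin, was at 32.2, 49.0 and 98.7 CPM against 17.4, 22.04 and 26.1 CPM (1.26, 0.82 without the 3). HACD1, an enzyme of very-long-chain fatty acid synthesis best known from muscle, was at 5.67, 6.63 and 12.8 CPM against 2.42, 3.27 and 4.11 CPM (1.17, 1.05 without the 3). SMARCD3, a subunit of the SWI/SNF chromatin remodelling complex known from heart and skeletal muscle, was at 36.7, 75.6 and 107 CPM against 18.7, 29.3 and 36.6 CPM, with its extremes almost touching.

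CNGA3, a channel opened by cyclic nucleotides, was at 3.89, 5.05 and 9.93 CPM against 0.853, 2.53 and 3.19 CPM. POPDC2, a cyclic AMP-binding membrane protein of muscle, was at 5.78, 6.05 and 10.8 CPM against 0.853, 2.92 and 4.71 CPM. Both are low genes, and the rule that named them asked for groups without overlap. Their log2 differences were 1.21 (CNGA3) and 1.15 (POPDC2), and without the 3 piglets 1.09 and 1.05.

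Lower in the muscle-rich piglets were ANKH and SLC5A6. ANKH, a membrane protein that moves pyrophosphate and ATP out of cells, was at 6.74, 8.79 and 25.5 CPM against 33.0, 38.1 and 101 CPM, a log2 difference of -1.92 ± 0.38 (SE; adjusted p = 0.0347 by edgeR's quasi-likelihood test) and -1.46 without the 3. SLC5A6, the sodium-dependent carrier for biotin and pantothenate, was at 39.1, 45.4 and 118 CPM against 130, 213 and 292 CPM, a difference of -1.71 ± 0.34 (SE; adjusted p = 0.0347) and -1.30 without the 3. In both the highest muscle-rich piglet was below the lowest muscle-poor one.

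The other 10 lower genes by the rule had smaller differences, from -0.98 for HINT3 to -0.53 for NFX1 (-0.76 and -0.47 without the 3). They were HINT3, TMEM135, TTC39C, SNX2, HMOX2, ATP9B, RUFY1, USF2, STRBP and NFX1. HMOX2, the constitutive heme oxygenase, was at 38.4, 47.2 and 58.1 CPM against 60.5, 72.5 and 86.5 CPM (log2 difference -0.66, -0.51 without the 3). RUFY1 and SNX2, both of endosomal traffic, differed by -0.55 and -0.68 (-0.46 and -0.53 without the 3).

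**Figure D3:**
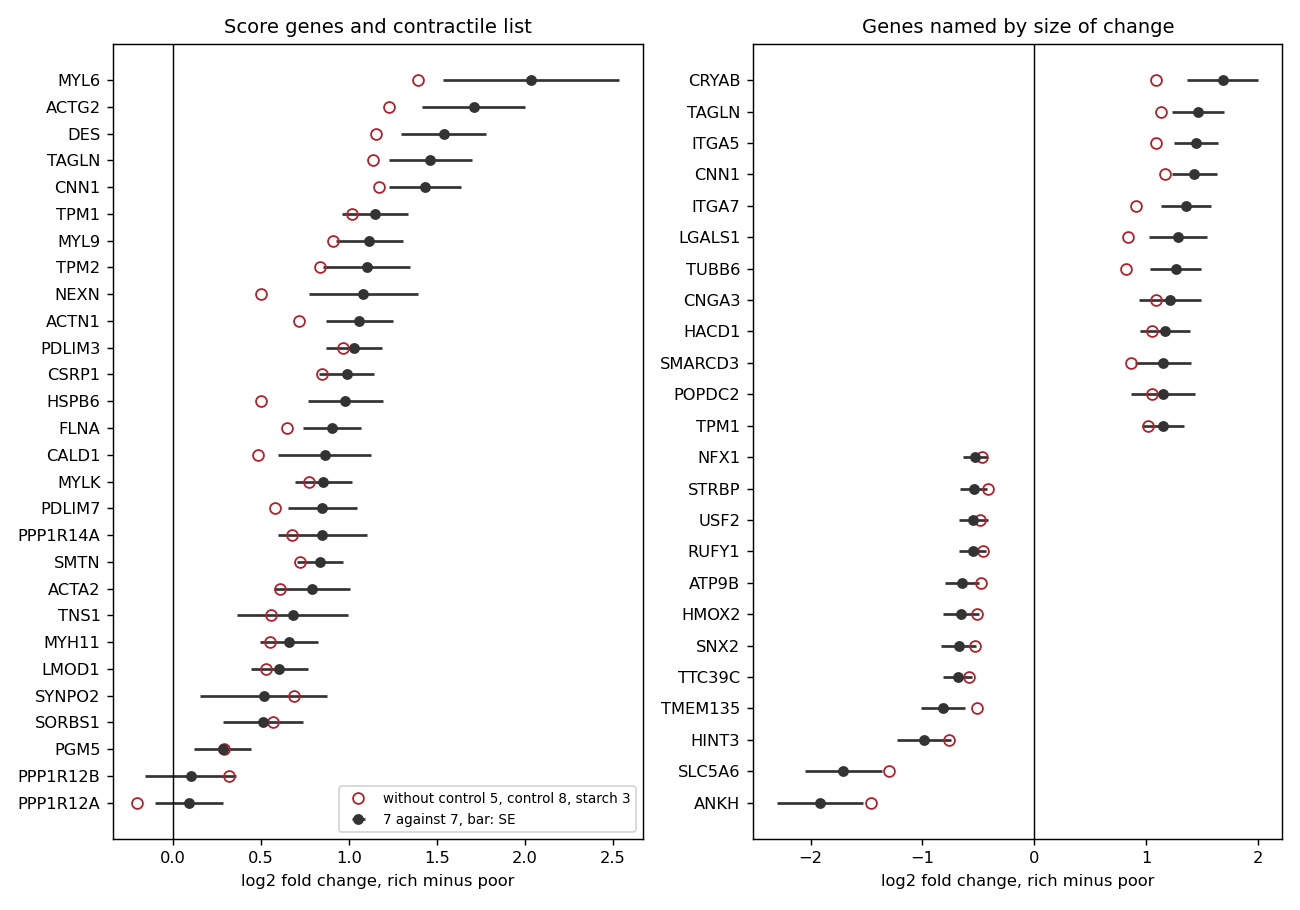
Log2 difference, muscle-rich minus muscle-poor, of the score and contractile genes (left) and of the 12 genes per direction named by size (right). Filled points are 7 against 7 piglets with the standard error as a bar, and open circles leave out control 5, control 8 and starch 3. Most open circles lie nearer to 0 than the filled points, and PPP1R12A is the 1 gene shown whose sign changes.

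Over all 13075 tested genes 2.03% were called higher and 0.436% lower, and 49.6% had a log2 difference above 0. These shares hold as the measure for every list below. Of 15 tested regulators of smooth-muscle genes, 6 had a log2 difference above 0 and 1 passed the test, with a median of -0.07 (-0.09 without the 3 piglets, and 0.02 with upper-quartile scaling). That gene was MYOCD, myocardin, the coactivator that drives contractile genes with serum response factor. It was at 12.3, 17.9 and 34.4 CPM against 7.74, 11.5 and 14.1 CPM, a difference of 0.69 ± 0.17 (SE; adjusted p = 0.0466 by edgeR's quasi-likelihood test) and 0.54 without the 3. SRF, serum response factor itself, was at 34.4, 41.1 and 68.3 CPM against 19.4, 27.3 and 66.7 CPM and did not pass (0.37, adjusted p = 0.28, and 0.35 without the 3). The myocardin-related factors MRTFA and MRTFB differed by 0.04 and -0.07 (0.01 and 0.12 without the 3). NKX2-3, a homeobox factor of gut mesenchyme, was at 15.2, 16.7 and 19.7 CPM against 8.63, 14.1 and 14.98 CPM without overlap, yet its difference of 0.35 did not pass (adjusted p = 0.15, and 0.40 without the 3).

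Of 16 tested genes of calcium handling and excitability, 15 were above 0 and 2 passed, with a median of 0.49 (0.37 without the 3). Over all genes 49.6% were above 0 and 2.03% were called higher. RYR3, a calcium release channel of the sarcoplasmic reticulum, was at 8.58, 10.8 and 21.97 CPM against 4.02, 5.81 and 7.98 CPM, a log2 difference of 0.97 (adjusted p = 0.0305 by edgeR's quasi-likelihood test). KCNMB1, the smooth-muscle beta subunit of the large-conductance calcium-activated potassium channel, was at 25.9, 32.7 and 40.7 CPM against 11.1, 17.0 and 22.9 CPM, a difference of 0.81 (adjusted p = 0.0347). Both had no overlap, and without the 3 piglets they differed by 0.91 (RYR3) and 0.76 (KCNMB1).

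Its pore-forming partner KCNMA1 was at 12.4, 25.1 and 62.9 CPM against 6.99, 18.1 and 23.8 CPM and did not pass (0.84, adjusted p = 0.113, and 0.59 without the 3). The sarcoplasmic reticulum calcium pump ATP2A2 was at 180, 251 and 436 CPM against 118, 168 and 264 CPM (0.51, adjusted p = 0.111, and 0.33 without the 3). STIM1, the sensor of emptied calcium stores, was the 1 gene with a difference below 0, at -0.28 (-0.17 without the 3).

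Receptors that make the muscle contract were low, and none of the 10 tested passed, although 9 were above 0 (median 0.34, and 0.28 without the 3). The muscarinic receptors of acetylcholine, CHRM2 and CHRM3, were at 1.49 to 8.81 and 3.02 to 9.34 CPM in the muscle-rich piglets and at 1.34 to 5.96 and 2.23 to 10.4 CPM in the muscle-poor ones. The tachykinin receptor TACR2 was at 3.73, 12.02 and 17.4 CPM against 6.97, 7.89 and 11.2 CPM. P2RX1, an ATP-gated channel, had the highest difference of the list (0.99, adjusted p = 0.0944, and 0.71 without the 3). The groups overlapped for all of these receptors.

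None of 10 tested genes of relaxation by nitric oxide and cyclic nucleotides passed, and 8 were above 0 (median 0.46, and 0.34 without the 3). GUCY1A1, a subunit of the nitric oxide receptor guanylate cyclase, was at 18.7, 27.6 and 52.4 CPM against 9.08, 16.9 and 27.9 CPM (0.79, adjusted p = 0.0564, and 0.59 without the 3). IRAG1, which couples cyclic GMP kinase to the calcium store, was at 22.8, 26.4 and 54.9 CPM against 12.7, 16.3 and 24.3 CPM (0.69, adjusted p = 0.0506, and 0.60 without the 3). The kinase itself, PRKG1, had a difference of -0.31 (-0.11 without the 3). Both GUCY1A1 and IRAG1 lay just outside the threshold.

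Genes that anchor the muscle cell to its matrix gave 4 calls among 19 tested, with 18 above 0 and a median of 0.60 (0.46 without the 3). The shares over all genes were 2.03% called higher and 49.6% above 0. ITGA5, the fibronectin-binding integrin subunit, was at 167, 242 and 381 CPM against 70.1, 89.0 and 124 CPM, a log2 difference of 1.44 ± 0.19 (SE; adjusted p = 0.00874 by edgeR's quasi-likelihood test). ITGA7, the laminin-binding subunit of muscle, was at 40.9, 67.6 and 128 CPM against 23.2, 26.02 and 32.9 CPM, a difference of 1.36 ± 0.22 (SE; adjusted p = 0.0188). Without the 3 piglets the differences were 1.09 (ITGA5) and 0.91 (ITGA7), and neither gene had overlapping groups.

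CAVIN1 and CAVIN3, coat proteins of the caveolae, rose by 0.69 (adjusted p = 0.0347 by edgeR's quasi-likelihood test) and 1.10 (adjusted p = 0.0492), and both differed by 0.53 without the 3. Dystrophin itself (DMD) was at 18.3, 30.8 and 66.7 CPM against 11.8, 22.9 and 44.4 CPM and did not pass (0.41, adjusted p = 0.368, and 0.46 without the 3). UTRN, its homologue utrophin, was the 1 gene below 0 (-0.32, and -0.14 without the 3). ITGA8 shows how far the 3 piglets can set a value: it was at 50.9 CPM in control 5, 24.0 in starch 3 and 17.2 in control 8, and at 5.92 to 8.67 CPM in the other 4 muscle-rich piglets. Its log2 difference of 1.23 (adjusted p = 0.0815) fell to 0.18 without the 3.

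Cells that lie among the muscle were read from their own markers. The pacemaker cells of Cajal were represented by 5 genes, with 4 above 0, none called and a median of 0.52 (0.31 without the 3). KIT, their growth factor receptor, was at 9.83, 14.7 and 31.4 CPM against 5.66, 10.3 and 15.7 CPM, and the chloride channel ANO1 at 15.2, 24.3 and 57.4 CPM against 8.93, 14.98 and 23.8 CPM. The PDGFRA-positive interstitial cells, with 3 genes, had a median of 0.43 (0.48 without the 3) and no call.

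Of 20 enteric neuron genes 19 were above 0 and 3 passed, with a median of 0.68 (0.45 without the 3). The shares over all genes were 49.6% above 0 and 2.03% called higher. The summed level of the 23 listed neuron genes was 250, 314 and 449 CPM in muscle-rich against 167, 223 and 254 CPM in muscle-poor piglets. PRPH, the filament protein peripherin, was at 23.6, 32.2 and 55.0 CPM against 14.6, 18.2 and 24.1 CPM (0.83, adjusted p = 0.0467 by edgeR's quasi-likelihood test). VIP, a relaxing and secretory neuropeptide, was at 23.3, 35.2 and 53.5 CPM against 12.1, 21.1 and 23.5 CPM (0.83, adjusted p = 0.045). TAC1, the precursor of the contracting peptide substance P, was at 2.76, 6.66 and 15.3 CPM against 0.589, 2.52 and 3.04 CPM (1.68, adjusted p = 0.0444). Without the 3 piglets these differences were 0.45 (PRPH), 0.65 (VIP) and 0.89 (TAC1). NOS1, the neuronal nitric oxide synthase, differed by -0.07 (-0.08 without the 3).

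Enteric glia gave a median of 0.23 (0.17 without the 3) over 8 genes. Of these 7 were above 0 and 1 was called, where 49.6% of all genes were above 0 and 2.03% were called higher. The summed level of the 11 listed genes ran the other way, at 175, 321 and 496 CPM in muscle-rich against 358, 442 and 506 CPM in muscle-poor piglets, and at 175 to 258 CPM in control 5, control 8 and starch 3. ERBB3, a receptor that epithelial cells also carry, took most of that sum, at 102, 275 and 439 CPM against 309, 399 and 455 CPM. The call was GFRA3, a receptor of the neurotrophic factor artemin, at 5.26, 11.7 and 18.4 CPM against 2.83, 3.83 and 9.13 CPM (1.15, adjusted p = 0.0444 by edgeR's quasi-likelihood test, and 0.78 without the 3). SOX10, the transcription factor that defines glia, was at 9.49, 12.9 and 27.9 CPM against 6.36, 8.25 and 13.2 CPM and did not pass (0.63, adjusted p = 0.156, and 0.24 without the 3).

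Markers of skeletal and cardiac muscle went different ways. The skeletal troponin TNNT3 and nebulin (NEB) reached at most 6 and 5 counts in any of the 21 libraries, and cardiac troponin TNNT2 at most 3. The 3 listed cardiac genes summed to 3.19, 6.25 and 28.6 CPM in muscle-rich against 2.84, 33.2 and 51.7 CPM in muscle-poor piglets. The 8 listed skeletal genes summed to 126, 156 and 232 CPM against 54.3, 77.9 and 92.6 CPM. Of 4 tested skeletal genes 3 were above 0, with a median of 0.67 (0.47 without the 3), and 1 was called higher and 1 lower. The gene called higher was CKM, which made up most of the skeletal sum in both groups. CKM, the muscle form of creatine kinase, which buffers ATP during contraction, was at 114, 139 and 203 CPM against 45.8, 69.6 and 81.6 CPM, without overlap. Its log2 difference was 1.05 ± 0.18 (SE; adjusted p = 0.0249 by edgeR's quasi-likelihood test), and 1.02 without the 3. ATP2A1, a calcium pump of fast muscle fibres, fell by 1.25 on the log2 scale (adjusted p = 0.0476 by edgeR's quasi-likelihood test), from 1.73 to 4.64 CPM in the muscle-poor to 0.858 to 1.97 CPM in the muscle-rich piglets, and by 0.92 without the 3. The mesothelium that covers the outer muscle coat left little trace. The markers WT1, UPK1B and BNC1 reached at most 10, 15 and 18 counts in any library, and none passed the filter on low counts.

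**Figure D4:**
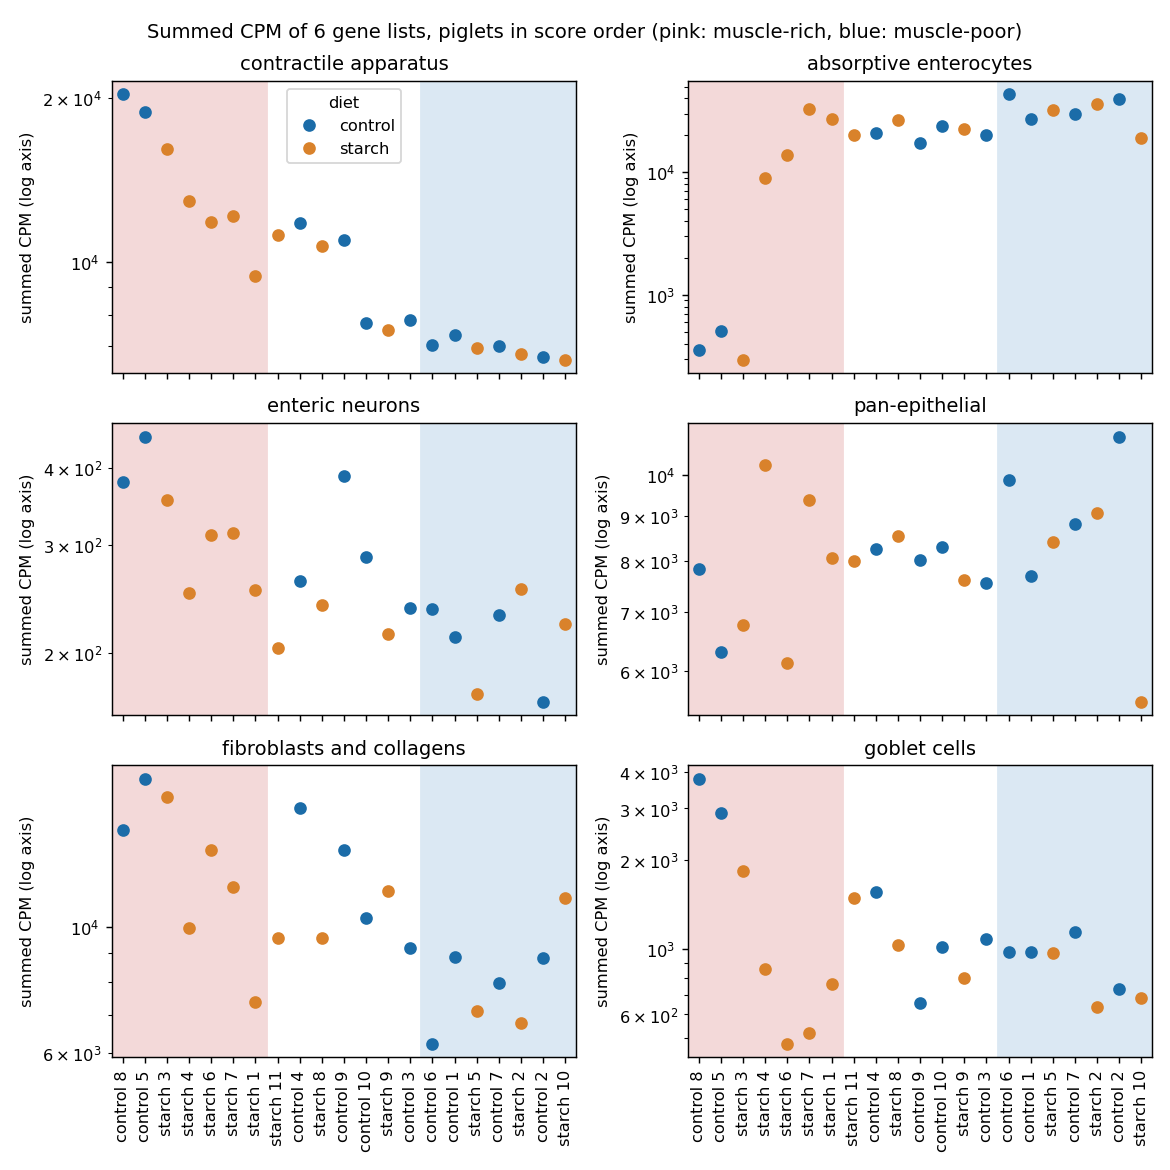
Summed CPM of gene lists in each piglet, in order of the muscle score. The contractile sum falls along the order, the absorptive enterocyte sum is 296 to 505 CPM in control 5, control 8 and starch 3, and other lists vary between piglets.

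All 21 fibroblast and collagen genes were above 0, 5 passed and the median was 0.64 (0.43 without the 3). Over all genes 49.6% were above 0 and 2.03% were called higher. COL6A3, a chain of the microfibrillar collagen VI, was at 282, 571 and 1071 CPM against 185, 232 and 306 CPM, a log2 difference of 1.30 ± 0.24 (SE; adjusted p = 0.0305 by edgeR's quasi-likelihood test) and 0.79 without the 3. POSTN, periostin, was at 389, 711 and 1140.5 CPM against 223, 397 and 499 CPM (0.99, adjusted p = 0.0438, and 0.79 without the 3). FN1, fibronectin, the ligand of ITGA5, was at 1138, 1508 and 2442 CPM against 605, 763 and 1207 CPM (0.84, adjusted p = 0.0401, and 0.63 without the 3). The other calls were COL6A1 (0.91, and 0.43 without the 3) and COL5A1 (0.75, and 0.49). The fibrillar collagens COL1A1 (0.64, adjusted p = 0.122, and 0.33 without the 3) and COL3A1 (0.31, adjusted p = 0.311, and 0.31) did not pass.

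Mural cell genes gave a median of 0.38 over 6 genes, which was 0.12 without the 3, with calls for MCAM (0.99, adjusted p = 0.0347 by edgeR's quasi-likelihood test, and 0.62 without the 3) and CSPG4 (0.72, adjusted p = 0.0467, and 0.42). MCAM and CSPG4 are surface proteins of pericytes and smooth-muscle cells. Blood endothelium had a median of 0.25 and lymphatic endothelium of 0.17, without a call, and without the 3 piglets these were 0.06 and 0.11.

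Signals that stromal cells send to the crypts gave 3 calls among 15 tested genes, with 11 above 0 and a median of 0.67 (0.32 without the 3). The shares over all genes were 2.03% called higher and 49.6% above 0. DKK3, a secreted glycoprotein of the dickkopf family, was at 23.5, 31.7 and 38.6 CPM against 12.5, 15.3 and 19.6 CPM, a difference of 0.93 ± 0.13 (SE; adjusted p = 0.00874 by edgeR's quasi-likelihood test) and 0.81 without the 3. RSPO1, an R-spondin that amplifies WNT signals, was at 1.97, 2.71 and 4.66 CPM against 0.354, 1.14 and 1.79 CPM (1.32, adjusted p = 0.0466, and 1.09 without the 3). FRZB, a secreted WNT antagonist, rose by 0.82 (adjusted p = 0.0452, and 0.78 without the 3). DKK3 and RSPO1 had no overlap. GREM1, a BMP antagonist made by muscle-near fibroblasts, was at 8.63, 26.3 and 140 CPM against 5.21, 13.2 and 34.9 CPM and did not pass (1.49, adjusted p = 0.0965, and 0.58 without the 3). BMP5, a BMP ligand, was on the other side (-0.68, adjusted p = 0.0787, and -0.50 without the 3).

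The hedgehog pathway, by which the epithelium signals to the muscle-forming mesenchyme, gave no call among 11 genes (median 0.16, and 0.09 without the 3). Its epithelial ligand IHH was at 1.37, 18.5 and 47.3 CPM against 26.2, 49.9 and 80.7 CPM (-1.39, adjusted p = 0.181, and -0.67 without the 3), and the target GLI1 at 2.45, 6.10 and 10.1 CPM against 6.11, 7.89 and 9.95 CPM.

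Crypt and cell cycle genes are set beside the same shares over all genes, 49.6% above 0 and 2.03% called higher. All 8 crypt stem cell genes were above 0 (7 of 8 without the 3), 2 passed and the median was 1.02 (0.62 without the 3). Their summed level did not follow the muscle order through the middle group: it was 1651, 2000.2 and 3281 CPM in the muscle-rich, 1037, 2468 and 4301 CPM in the middle and 737, 875 and 1837 CPM in the muscle-poor piglets, with the highest value in control 9. OLFM4, a secreted marker of crypt base stem cells, was at 1461, 1748 and 2782 CPM against 637, 768 and 1639 CPM, a difference of 1.08 ± 0.20 (SE; adjusted p = 0.0305 by edgeR's quasi-likelihood test) and 0.90 without the 3. EPHB2, a receptor that keeps cells in the crypt, was at 28.6, 57.3 and 261 CPM against 15.1, 22.4 and 48.8 CPM (1.95, adjusted p = 0.0404), and 0.77 without the 3. LGR5, the receptor of R-spondins on stem cells, was at 4.81, 12.6 and 15.8 CPM against 3.14, 5.05 and 10.0 CPM and did not pass (0.97, adjusted p = 0.0584, and 0.92 without the 3). All 12 cell cycle genes were above 0 (9 of 12 without the 3), with a median of 0.88 (0.65 without the 3). The 1 call was CDK1, the kinase that starts mitosis (1.10, adjusted p = 0.0492 by edgeR's quasi-likelihood test, and 0.88 without the 3).

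The absorptive end went the other way in direction and not in calls. Of 14 absorptive enterocyte genes 13 were below 0, none passed, and the median of -1.41 was -0.62 without the 3 piglets. APOA4, an apolipoprotein of chylomicrons, was at 0.741, 222 and 802 CPM against 482, 1069 and 4060.5 CPM (-2.20, adjusted p = 0.224 by edgeR's quasi-likelihood test, and -1.41 without the 3). SI, sucrase-isomaltase, was at 15.9, 270 and 2211 CPM against 461, 1135 and 1466 CPM (-0.53, adjusted p = 0.738, and 0.26 without the 3), so that the highest single value stood in a muscle-rich piglet. Pan-epithelial genes had a median of -0.13 over 13 genes (0.22 without the 3). EPCAM, present on all epithelial cells, was at 450, 676 and 1102 CPM against 494, 645 and 770 CPM.

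With the absorptive score as a second term in the fit, 0 genes were called in either direction by edgeR's quasi-likelihood test. At an unadjusted p below 0.05 there were then 518 higher and 342 lower genes, and no other tool was run with this term. The log2 differences were smaller for the genes given here. CNN1 was at 1.13 (1.43 without the term), ITGA5 at 1.03 (1.44), HACD1 at 1.02 (1.17), TPM1 at 0.98 (1.15) and DKK3 at 0.81 (0.93). Larger drops were those of CRYAB to 1.02 (1.68), ITGA7 to 0.86 (1.36), LGALS1 to 0.82 (1.29) and TUBB6 to 0.76 (1.26). Among the lower genes TMEM135 was at -0.44 (-0.81). The part of the low absorptive messages in the muscle differences was not tested further.

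Several large differences rested on control 5, control 8 and starch 3. KRT18, a keratin of simple epithelia, was at 562 to 870 CPM in these 3 and at 20.6 to 46.4 CPM in the other 4 muscle-rich piglets, against 15.7 to 42.5 CPM in the muscle-poor ones. Its log2 difference of 3.51 (adjusted p = 0.0438 by edgeR's quasi-likelihood test) was 0.45 without the 3. In these 3 libraries KRT18 gave 0.176 to 0.237 counts per count of its partner keratin KRT8, and at most 0.0294 in the other 18.

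AGR2, a secretory protein of goblet cells, was at 670 to 1299 CPM in the 3 and 40.2 to 126 CPM in the other 4 (difference 3.36, and 0.78 without the 3). CD163, the hemoglobin scavenger receptor of macrophages, was at 790 to 1087 CPM and 20.6 to 222 CPM (3.58, and 1.24 without the 3), and CD14, the endotoxin co-receptor, at 62.4 to 94.3 CPM and 2.24 to 16.0 CPM (3.27, and 0.98). AGR2, CD163 and CD14 all passed the test with the 3 piglets, at adjusted p = 0.0431, 0.0467 and 0.0438 by edgeR's quasi-likelihood test. Macrophage genes as a list had a median of 0.99 with all 10 above 0, and of 0.31 with 9 of 10 above 0 without the 3. The goblet cell median was 0.62 over 8 genes and -0.37 without the 3, so its sign rests on them.

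T cell genes had a median of -0.21 over 9 genes (-0.37 without the 3) and plasma cell genes of 0.24 over 7 (-0.11), with no call. B cell genes had the lowest median of any list, -1.98 over 5 genes (-2.35 without the 3), again with no call. CD79A, part of the B cell receptor, was at 87.1 CPM in starch 10 and at 14.7 CPM in control 1, and at most 3.70 CPM in the other 5 muscle-poor piglets, so that starch 10 carried this difference. Muscle-rich piglets had 0.740 to 6.22 CPM.

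The 13 mitochondrially encoded messages had a median of 0.03 with 7 above 0 (0.31 with 13 above 0 without the 3, whose mitochondrial share was 13.2 to 16.2%), and 14 nuclear genes of oxidative phosphorylation 0.07 (0.12 without the 3), with no call in either. Without the 3 all muscle-rich piglets are starch piglets. Starch minus control, the 13 mitochondrial messages were also all above 0, with a median of 0.31 and no call. Muscle order and diet cannot be told apart there. The immediate early genes, which respond within minutes to handling and other stimuli, had a median of 0.64 (0.09 without the 3) and no call, and FOS was at 77.1 to 105 CPM in the 3 piglets and 5.30 to 49.4 CPM in the other 4. Red blood cell genes had a median of -0.38 over 2 genes (-0.20 without the 3). Other lists without a call were enteroendocrine cells (median -0.22 over 8 genes, and -0.04 without the 3), mast cells (0.16 over 4, and 0.19), adipocytes (0.47 over 3, and 0.50) and cardiac muscle genes (-0.47 over 2, and 0.00).

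**Figure D5:**
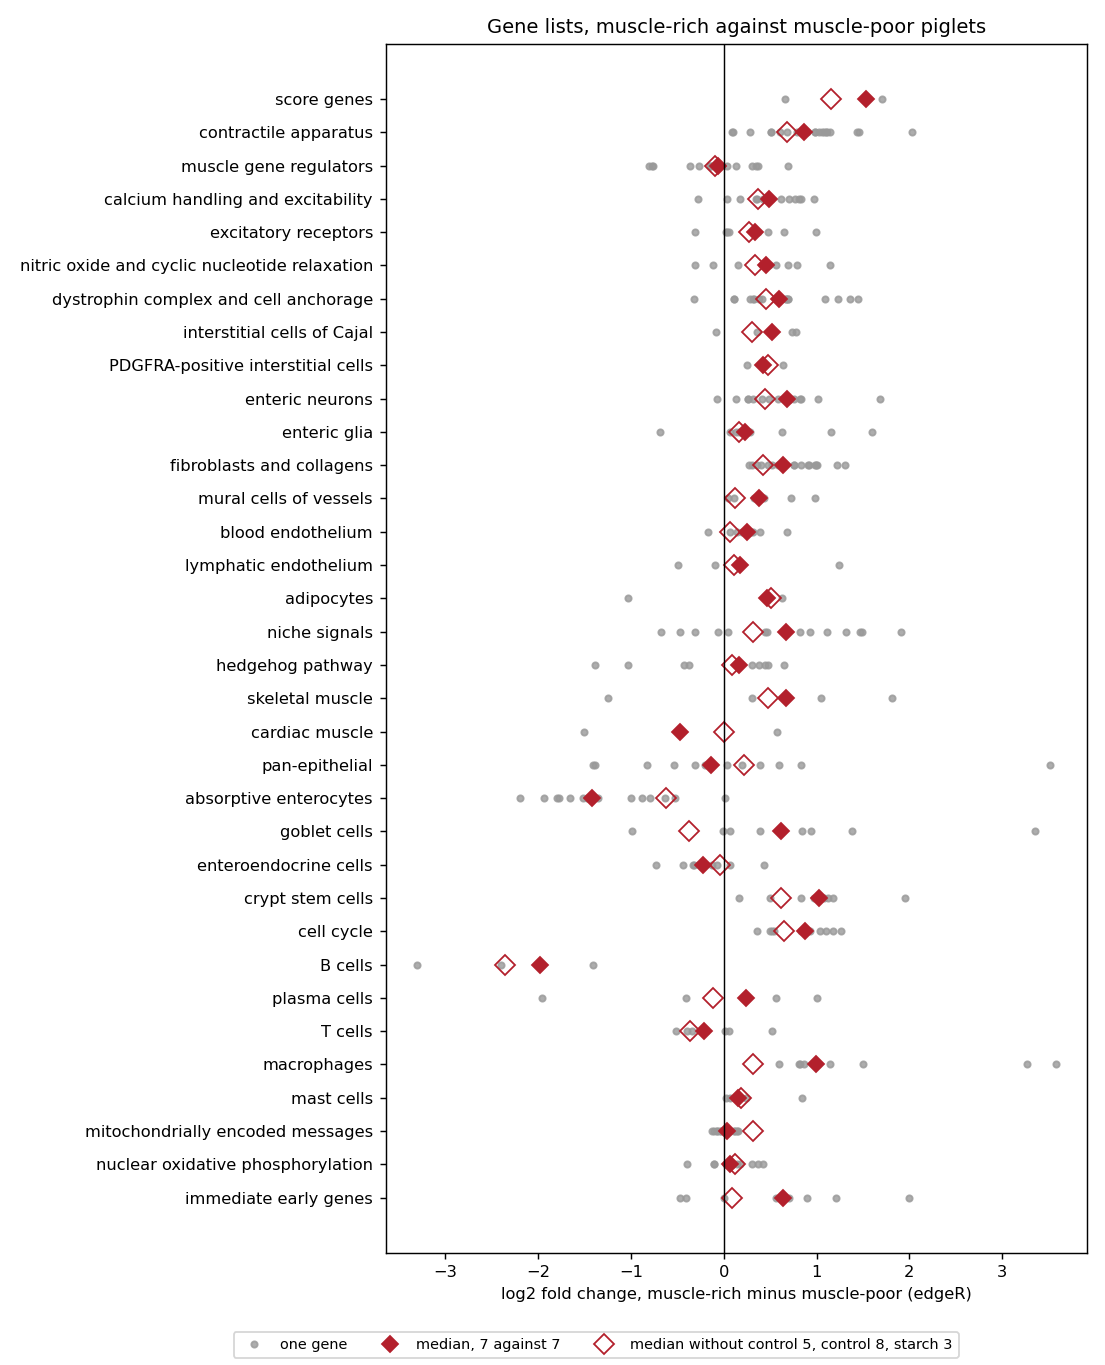
Median log2 difference, muscle-rich minus muscle-poor, of each gene list with all 14 piglets and without control 5, control 8 and starch 3. Grey points are single genes. Contractile, connective tissue, neuron and crypt medians lie above 0 in both. The goblet cell, plasma cell and pan-epithelial medians change sign, and the cardiac muscle median moves from -0.47 to 0.00.

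The diets were compared on the same scale, since diet had not been used to order the piglets. The muscle score was 11.50 ± 0.56 in starch (SD, n = 11) and 11.45 ± 0.74 in control piglets (SD, n = 10), a difference of 0.05 (two-sided permutation test, p = 0.855). Without control 5, control 8 and starch 3 the difference was 0.28 (permutation p = 0.191). The contractile list had a median log2 difference of 0.08, starch minus control, with 17 of 25 genes above 0, against 51.1% of all genes. The edgeR quasi-likelihood test called 0 of 13127 genes between the diets, with 174 (1.33%) at an unadjusted p below 0.05, and DESeq2 also called 0. The difference in score between the diets was smaller than the spread between piglets of 1 diet.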

How the data were processed

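RNA was sequenced from distal small intestine of 21 piglets, and extracted with miRNAeasy kits per the labels' protocols. The authors deposited 1 table per piglet with, per the file headers, an expected count (a read count estimated by the authors, fractions possible, not normalised) and an FPKM value for each transcript, which the authors had scaled for length and depth. HISAT and DESeq2 are named per the submitters' processing notes, while the build of the genome, the strand setting and the counter were not given in the sources used here. Nearly all lengths are multiples of 3 (99.96 to 99.97% per file), so FPKM rests on coding lengths.

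Expected counts were summed per gene and rounded (39105 transcripts of 18661 genes, 76.5% of them matched to a symbol). CPM values in the text are gene counts divided by the library total and multiplied by 1000000, with totals of 6719264 to 8610458, which set the counting error. The fits used edgeR 4.0.16 in R 4.3.3 (quasi-likelihood test, TMM scaling, filterByExpr with minimum count 10 and minimum total 15, Benjamini-Hochberg adjustment over all genes fitted, threshold 0.05) on the 14 piglets, and on all 21 for diet. Scores of the diets were compared by a two-sided permutation test with 100000 resamples. DESeq2 1.42.0 and limma 3.58.1 were alternatives, and scripts were tested on simulated data. Copies of near-identical genes are uncertain, since the authors' estimate divided shared reads.

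The named genes are the score genes, per direction the 12 largest log2 differences among called genes with a symbol, at least 5 CPM in the higher group and no overlap, the first 4 genes of each of 36 lists, and up to 3 further called members of a list. Other list members named, such as LMOD1, NKX2-3, KCNMA1, ITGA8, NOS1 and BMP5, were picked after their values were seen. The members, lists and tests were chosen with earlier results of these data known. Labels do not say that piglets of a diet came from separate litters, so p-values measure the spread between these samples.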

Additional observations from a re-analysis of the deposited data

Results flagged for a closer look

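In 87 groups of piglets tested for a single value far from the rest by Dixon's test, 7 held such a value, where chance gives about 1 in 20 groups. Control 8 had the highest CRYAB level of the control piglets, 122.6 CPM against 54.9 CPM in the next. It also had the highest HACD1 level, 12.8 CPM, against 7.92 CPM in the next muscle-rich and 6.21 CPM in the next control piglet, and the highest POPDC2 level, 10.8 CPM against 7.45 CPM in the next muscle-rich piglet. Control 5 had the highest CNGA3 level of the muscle-rich piglets, 9.93 CPM against 5.89 CPM. Among muscle-poor piglets, ANKH was at 100.9 CPM in starch 5 and at 56.7 CPM in the next. USF2 was at 148 CPM in control 7, against 111 CPM in the next control piglet. Of the 7 flags 5 fell on control 8 or control 5, with the HACD1 value of control 8 counted in both its groups. These are the piglets with the 2 highest muscle scores. CRYAB, HACD1, POPDC2 and CNGA3 were named for high levels in muscle-rich piglets, so this place is largely set by the choice of genes.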

How the results depend on the processing

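The counts of genes called higher (266) and lower (57) depended on the settings, and the cause was not tested. The higher count was 501 with upper-quartile scaling, 169 with library totals only, 882 with DESeq2, 580 with voom, 41, 40 and 39 with limma on log2 FPKM (pseudocounts of 0.5, 0.1 and 1), 464 with diet as a term, 0 with the absorptive score as a term, 498 for 5 against 5 piglets, 905 for 10 against 11, 2213 for the score as a slope over 21, 1 with the score from CNN1, MYLK and SYNPO2 (which moved 6 piglets to another group) and 0 without control 5, control 8 and starch 3. The lower count was 532 with DESeq2, 696 with voom, 15, 14 and 17 with the 3 FPKM fits in the same order, 149 with diet as a term, 0 with the absorptive term, 343, 426 and 2161 for the 3 other groupings, 0 with the CNN1, MYLK and SYNPO2 score and 0 without the 3 piglets. Leaving out each piglet in turn gave 5 to 1059 higher and 0 to 776 lower genes, and each of the 14 but starch 7 (377 and 62) moved them by more than 1.5 times. Both counts stayed within 1.5 times under RLE scaling, both low-count filters and the FPKM score.

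Over the named genes and their alternatives, 9770 values kept direction and call status, 935 lost the call, 396 gained it and 461 moved. The 9770 include genes called in neither fit, and only called genes can lose a call. The 9770 are thus no measure of how stable the calls are. Of the list medians 1092 stayed and 28 moved. Diet calls were 0 under all alternatives, leaving out each piglet in turn included. The score difference between the diets (0.05) was -0.0418 to 0.217 when each piglet was left out. Same-numbered piglets of the 2 diets correlated at -0.354 to 0.515 over 10 numbers. Numbers 3, 5 and 8, which hold starch 3, control 5 and control 8, were at -0.312, -0.295 and -0.354. Differently numbered piglets were not correlated for comparison, so these values cannot decide whether the numbers pair the piglets. With the replicate block the score difference was 0.03 (exact sign-flip permutation p = 0.926) and 0 genes were called between the diets. Genes below about 5 CPM, such as RSPO1, and POPDC2 in the muscle-poor group, rest on few counts per library.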

Other observations

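The largest log2 differences of all were in genes outside the naming rule, and the following were chosen after their values were seen. MMP12, a macrophage elastase, had a mean of 122.5 CPM in muscle-rich and 2.06 CPM in muscle-poor piglets, a log2 difference of 5.84, which was 2.04 without control 5, control 8 and starch 3. ACOD1, the enzyme of activated macrophages that makes itaconate, had means of 29.2 and 1.07 CPM (4.62, and 2.24 without the 3). TIMP1, an inhibitor of matrix metalloproteinases, had means of 448 and 31.0 CPM (3.72, and 1.55 without the 3). SLC11A1, a metal transporter of phagosomes, had means of 20.2 and 1.04 CPM (4.14, and 1.65 without the 3). All 4 passed the edgeR quasi-likelihood test with the 3 piglets, at adjusted p = 0.0444, 0.0432, 0.0348 and 0.038 in the order given, and no gene passed it without them.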
